A study of Mus musculus with 4 samples.

Results

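Eph receptors and their ephrin ligands, Robo receptors and their Slit ligands, and the netrins with their receptors form 3 cell surface guidance systems. They are described here in cells of the fetal mouse neocortex that the labels name basal radial glia. The members were 37 genes listed by symbol and matched to the gene identifiers of the count table through GENCODE release M21. Of these, 36 were found among the 45706 genes of the table; Ntn3 was not matched and is not analysed here. They were 9 EphA and 5 EphB receptors, 5 ephrin-A and 3 ephrin-B ligands, 3 Slits, 3 Robos, 2 netrins and 6 netrin receptors.

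Basal radial glia divide away from the ventricle and extend a process toward the pial surface. RNA was sequenced from 4 replicate libraries labelled as such cells, taken from the medial neocortex at E18.5. Neuron markers summed higher than radial glia markers in every library, as given below. All 4 libraries form a single group: strain C57BL/6JOlaHsd, genotype Tubb-GFP/+, with the dye DiI named in the sample titles, so no contrast between conditions exists. How reporter and dye served to isolate the cells is not stated in the labels. Whether each library stands for its own animal is not stated, so p-values speak to the variation among these 4 libraries alone, part or all of which may be technical.

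Ephrins are membrane-bound ligands for the Eph receptor tyrosine kinases. Ephrin-A ligands are held by a lipid anchor and ephrin-B ligands span the membrane, and both can also signal into the cell that carries them. Slits and netrins are secreted: Slits repel growing axons and migrating neurons through Robo receptors, and netrins attract through Dcc and repel through the Unc5 receptors. In the developing cortex these systems are known for guiding axons, for the migration of neurons and for the attachment and division of radial glia.

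Library totals ranged from 26540656 to 34837657 counts, and the members together took 0.157% to 0.179% of them. All 14 radial glia markers lay above 1 TPM (a level per transcript length, scaled to a fixed sum per library) by edgeR's quasi-likelihood test. Hopx was among them at 3.03 ± 0.414 TPM (SD, n = 4), from 35 to 55 counts per library. Its level is uncertain, as 27.2% of its exonic bases lie opposite exons of another gene and the counting is not stated to use strand. All 11 neuron markers lay above 1 TPM too. Their summed level (9821 to 10968 TPM) exceeded that of the radial glia markers (6411 to 7774 TPM) in every library. Above 1 TPM also lay 7 of 7 intermediate progenitor markers tested (sum 1285 to 1456 TPM) and 7 of 9 interneuron markers (sum 178 to 325 TPM). So did 7 of 7 astrocyte and 6 of 6 oligodendrocyte lineage markers. These counts are read beside 65.9% of all genes tested and 75.7% of protein-coding genes tested. Neurog1, an intermediate progenitor marker with 0, 1, 0 and 4 counts, was not tested. Of 10 endothelial markers 2 lay above and 6 below 1 TPM, with a sum of 4.65 to 7.32 TPM; Tie1 was at 0 in 3 libraries. The part of RNA from these other cell types in the members' values was not tested. In bulk RNA, few cells with much of a transcript and many cells with little of it cannot be told apart.

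TPM was computed from the counts over each gene's merged exons. Comparisons between genes rest on that length, and some changed with the longest transcript as length. Because a gene's length is the same in every library, p-values of ratios between genes do not cover an error in it. A gene was tested where it had at least 10 counts in total, which 35 of the 36 members had. By edgeR's quasi-likelihood test with Benjamini-Hochberg adjustment over 20991 genes, 26 members lay above 1 TPM, where 65.9% of all genes tested did. The members' share was 74.3%, beside 75.7% of the protein-coding genes tested. Below 1 TPM were 3 members (Epha2, Epha6 and Slit3), where 12.1% of all genes tested lay, and 6 were not called (Epha1, Epha8, Epha10, Slit1, Ntn1 and Ntn4). The median member level was 8.28 TPM, against 4.79 TPM over all genes tested and 9.0 TPM over protein-coding genes. By role, 17 of the 22 receptors tested and 9 of the 13 ligands lay above 1 TPM.

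**Figure D1:**
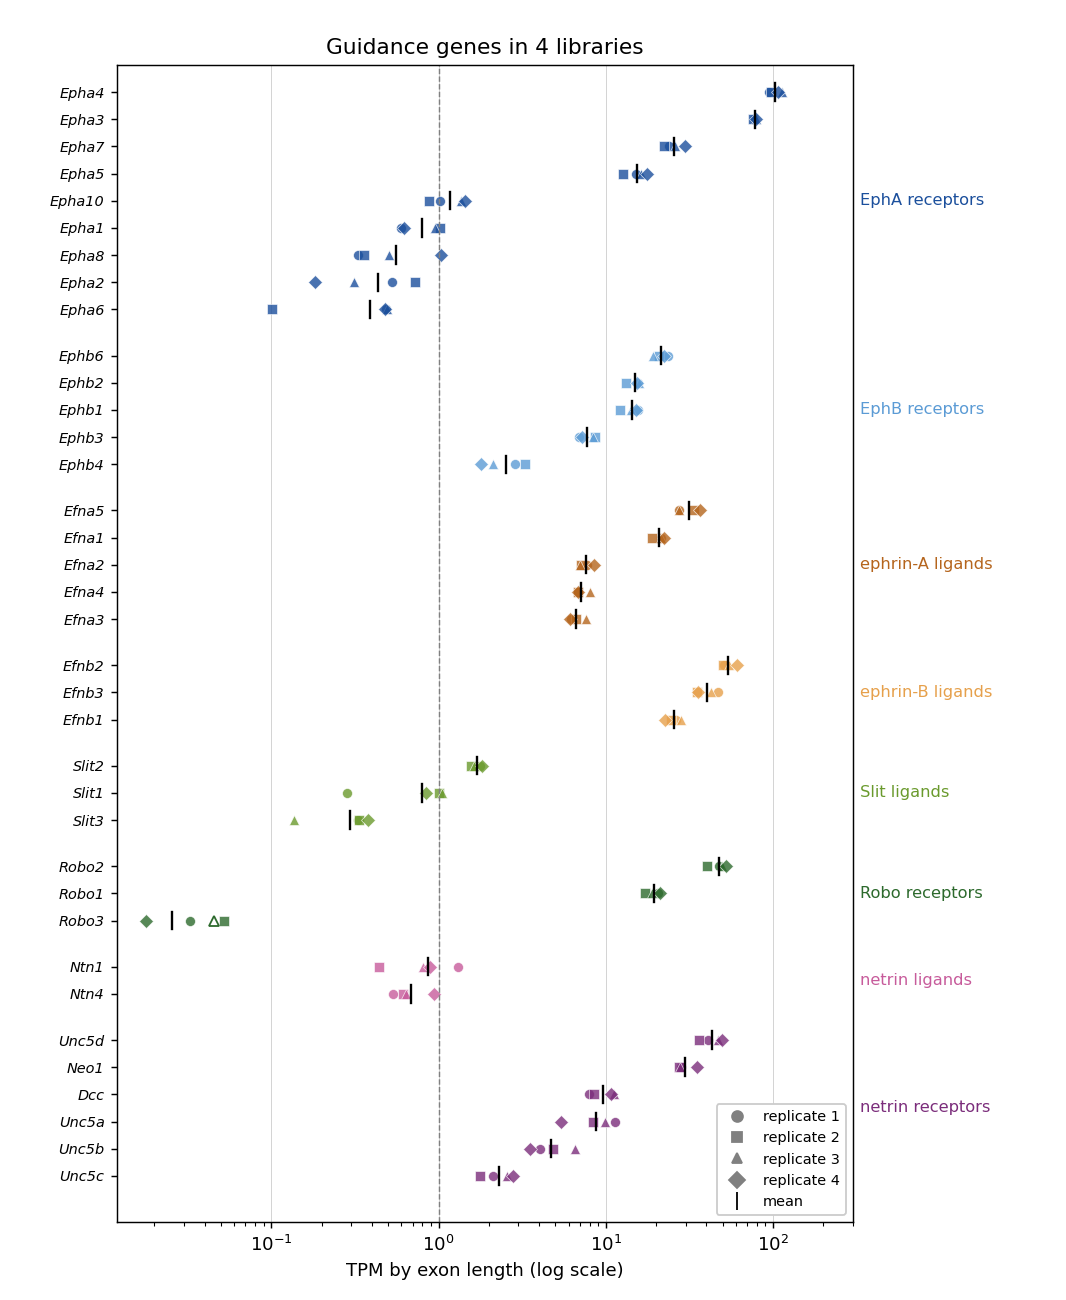
TPM by exon length (log scale) of the 36 matched members, grouped by role; symbols are the 4 replicates, black bars the means, the dashed line 1 TPM, and the open triangle marks the level of 3 counts where Robo3 had none. Mean levels run from 102.9 TPM for Epha4 to 0.0256 TPM for Robo3, and the Slits and netrins lie at the low end of the plot.

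Epha4 was the most abundant member. This receptor, which binds both ephrin-A and ephrin-B ligands, lies at chr1:77367185-77515088 on the minus strand (GRCm38). Its level was 94.7, 97.1, 113 and 107 TPM in replicates 1 to 4 (mean 102.9 ± 8.57 TPM, SD, n = 4). Epha3, at chr16:63543534-63864175 on the minus strand, followed with 77.4, 75.8, 78.9 and 79.3 TPM, a coefficient of variation of 2.02%. The ranges of these receptors did not overlap, and Epha4 exceeded Epha3 by 0.40 ± 0.072 (log2 ratio of TPM + 1, SE) in 4 of 4 libraries. The adjusted p of this ratio was 0.00184 by limma. With the longest transcript as length it was 0.13, with adjusted p = 0.126.

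Epha7 and Epha5 stood lower than both. Epha7, a receptor known from cortical area and axon patterning, measured 23.9, 22.2, 25.8 and 29.9 TPM. Epha5, a partner of ephrin-A5 in axon mapping, measured 15.1, 12.7, 16.2 and 17.6 TPM. Epha5 was below Epha7 in all 4 libraries, by a log2 ratio of -0.69 ± 0.109 (SE; limma, adjusted p = 0.000189); with the longest transcript as length the ratio was -0.08, with adjusted p = 0.484.

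The other 5 EphA receptors were scarce, at mean levels of 0.390 to 1.18 TPM. Epha10, whose kinase domain is inactive, averaged 1.18 TPM, Epha1 0.797 TPM and Epha8 0.557 TPM, none of them called. With the longest transcript as length edgeR called Epha10 above 1 TPM (adjusted p = 0.0385) and Epha8 below it (adjusted p = 0.0127). Epha2, a receptor best known from epithelia, averaged 0.435 TPM and was called below 1 TPM by edgeR (adjusted p = 0.023). Without replicate 1, 3 or 4 its adjusted p was 0.0508, 0.0708 and 0.0553. Epha6 averaged 0.390 TPM (edgeR, adjusted p = 0.018). The EphA receptors thus comprised 4 members of 15.4 TPM or more and 5 at 1.18 TPM or less, and Epha4 and Epha3 carried 80.4% ± 1.49 (SD, n = 4) of the EphA sum. Without replicate 4, in which it was highest at 1.03 TPM, Epha8 was called below 1 TPM (edgeR, adjusted p = 0.0181).

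Start-region sequence is shown for the most abundant EphA receptor and for a scarce one, picked because their CpG content ran against their levels. The scarce one, Epha8, held the most CpG of the 31 members matched to a sequence. Of the other scarce EphA receptors Epha1 and Epha2 held 9 CpG, Epha6 15 and Epha10 17. Of the other abundant ones Epha3 held 16, Epha5 20 and Epha7 25, so this pair does not stand for the EphA receptors. The 250 bases upstream of the annotated start (RefSeq, GRCm38.p6) held 14 CpG for Epha4, at chr1:77515089-77515338, and 46 for Epha8, at chr4:136956817-136957066. Both are given on the gene's own strand, the minus strand, 5′ to 3′, with each CpG in capitals.
Epha4: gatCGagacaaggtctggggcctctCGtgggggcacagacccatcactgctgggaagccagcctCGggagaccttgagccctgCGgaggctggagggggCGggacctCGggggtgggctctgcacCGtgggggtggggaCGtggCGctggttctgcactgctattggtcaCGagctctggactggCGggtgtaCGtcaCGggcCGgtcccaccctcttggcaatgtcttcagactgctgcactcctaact
Epha8: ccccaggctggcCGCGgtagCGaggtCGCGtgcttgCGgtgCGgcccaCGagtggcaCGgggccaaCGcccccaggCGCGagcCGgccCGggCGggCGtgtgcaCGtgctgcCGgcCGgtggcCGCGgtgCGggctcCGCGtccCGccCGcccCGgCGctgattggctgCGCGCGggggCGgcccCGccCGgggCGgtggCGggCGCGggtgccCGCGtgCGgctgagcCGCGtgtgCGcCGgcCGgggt

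Of 27025 genes with such a sequence, 68.3% held fewer CpG than Epha4 and 99.6% fewer than Epha8. The 31 members matched to a sequence held 7 to 46 CpG with a median of 20, against a median of 6 over all genes of the table. The median was 20 for the 23 matched members above 1 TPM and 16 for the other 8. Methylation was not measured, and a CpG count is a description of the sequence.

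All 5 EphB receptors lay above 1 TPM, within a narrower range, beside 75.7% of protein-coding genes tested. With the whole gene span as length 3 of the 5 did, beside 60.1% of all genes tested. By exon length Ephb6, a receptor without kinase activity, was highest at 23.6, 20.8, 19.2 and 22.2 TPM. With the longest transcript as length it averaged 16.3 TPM and Ephb1 16.2 TPM. The log2 ratio of Ephb1 to Ephb6 was then -0.008 (limma, adjusted p = 0.944). Ephb2, at chr4:136647539-136835988 on the minus strand, measured 15.5, 13.2, 15.9 and 15.4 TPM. Ephb1 measured 15.5, 12.2, 14.2 and 15.1 TPM. Ephb1 and Ephb2, both receptors for ephrin-B ligands in axon guidance at the midline, overlapped in range: their log2 ratio was -0.07 ± 0.091 (SE) and was not called by limma (adjusted p = 0.476). The sign of this ratio rested on the length used, since it was 0.28 with the longest transcript (adjusted p = 0.0155).

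Ephb3 measured 6.90, 8.59, 8.39 and 7.20 TPM, below Ephb2 by 0.87 ± 0.131 on the log2 scale (SE; limma, adjusted p = 3.4e-05). Ephb4, known from veins, where it pairs with ephrin-B2, was lowest at a mean of 2.52 TPM (edgeR, adjusted p = 2.0e-05). Its levels were 2.87, 3.29, 2.13 and 1.81 TPM in replicates 1 to 4. The endothelial markers summed to 7.32, 6.74, 5.39 and 4.65 TPM in those replicates, but differed among themselves. Esam, Egfl7 and Kdr were lowest in replicate 4, while Pecam1, Cdh5, Tek and Emcn were highest in it. The part of endothelial RNA in Ephb4 was not tested.

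All 8 ephrins were called above 1 TPM, beside 75.7% of protein-coding genes tested, and so was 1 of the 3 Slits but neither netrin. With the gene span as length 7 of the 8 ephrins were, beside 60.1% of all genes tested. Among the ephrin-A ligands Efna5, at chr17:62604184-62881317 on the minus strand and known for topographic axon mapping, was highest at 27.5, 33.8, 27.3 and 36.6 TPM. Efna1 followed at 21.3, 18.8, 21.3 and 22.4 TPM. Efna2 measured 7.71, 7.09, 7.03 and 8.49 TPM. Replicate 4 held the highest value of each of these 3 ligands.

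Efna3 and Efna4 are neighbours on chromosome 3 and stood at like levels. Efna4 measured 6.78, 6.83, 8.07 and 6.83 TPM, and Efna3 6.20, 6.68, 7.61 and 6.13 TPM. Efna3 was lower in 4 of 4 libraries, yet the log2 ratio of -0.09 ± 0.094 (SE) was not called by limma (adjusted p = 0.39). Both are uncertain, as 14.1% of the exonic bases of Efna3 and 10.5% of those of Efna4 lie opposite exons of another gene and the counting is not stated to use strand.

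By exon length the 3 ephrin-B ligands were among the 9 most abundant members. With the longest transcript as length Efnb1 averaged 20.4 TPM, below Robo1 (32.1 TPM), Epha7 (28.2 TPM) and Epha5 (26.6 TPM). The means of those receptors lay below that of Efnb1 by exon length. Efnb2, at chr8:8617434-8661242 on the minus strand, a ligand with roles in vessels and in neural progenitors, measured 50.9, 49.9, 54.7 and 60.9 TPM. Efnb3, known as a midline barrier to axons, measured 47.1, 34.9, 42.8 and 35.7 TPM. Efnb1, an X-linked ligand known from radial glia and neural progenitors, measured 26.4, 24.6, 28.3 and 22.7 TPM. Efnb2 exceeded Efnb3 in 4 of 4 libraries by 0.43 ± 0.163 (log2, SE; limma, adjusted p = 0.01), but without replicate 4 the ratio was 0.32 with adjusted p = 0.101. Efnb1 was below both, by -1.06 ± 0.111 against Efnb2 (adjusted p = 4.6e-05) and by -0.63 ± 0.162 against Efnb3 (adjusted p = 0.00016), both by limma.

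In summed TPM by exon length, receptors exceeded ligands in the A class and ligands exceeded receptors in the B class. Epha4, which binds ligands of both classes and made up 45.7% of the EphA sum, was counted in the A class only. The B class result rests on that choice, as Epha4 alone averaged 102.9 TPM. Summed over members, EphA receptors reached 224.9 ± 14.5 TPM and ephrin-A ligands 73.6 ± 4.84 TPM (SD, n = 4). The EphA sum was the larger in each library, 2.88 to 3.33 times the ephrin-A sum. EphB receptors reached 61.0 ± 2.68 TPM and ephrin-B ligands 119.7 ± 7.42 TPM, so that the receptor sum was 0.475 to 0.531 times the ligand sum. Without the highest member of each sum, the log2 ratio of EphA to ephrin-A was 1.53 rather than 1.61. As a difference of medians of log2(TPM + 1) over members it was -2.0, and with the gene span as length the log2 ratio of sums was 0.05. No test was made of sums over chosen members.

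**Figure D2:**
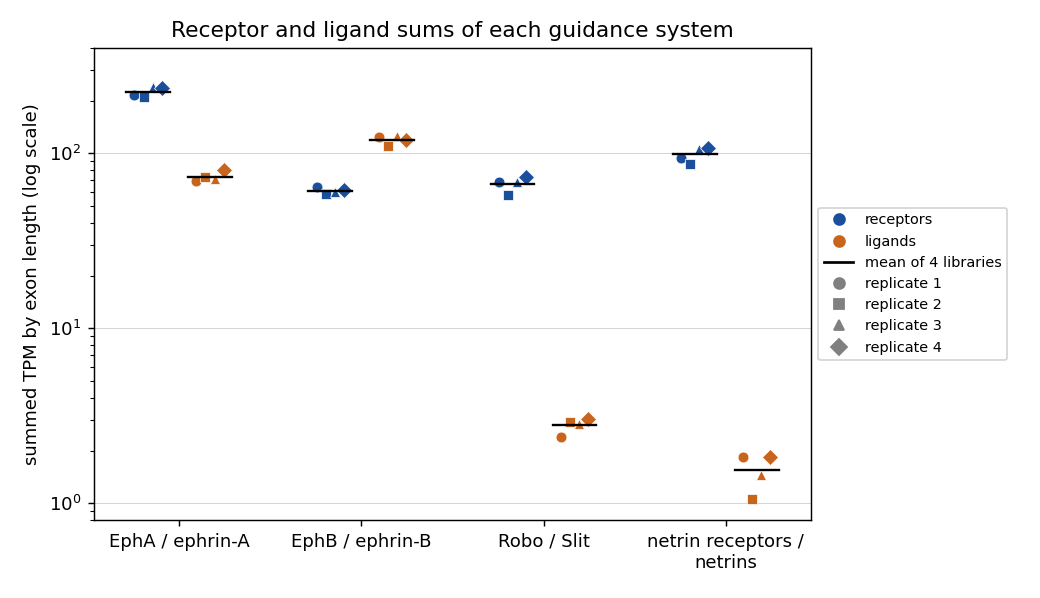
Summed TPM by exon length (log scale) of the receptors (blue) and ligands (orange) of each system in the 4 replicates, with the mean as a black bar. Ligand sums are 73.6 and 119.7 TPM on average for the ephrin classes, and 2.79 and 1.54 TPM for Slits and netrins, while the receptor sums all lie between 57.7 and 237.6 TPM.

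Among the Slits only Slit2 was called above 1 TPM. Slit2, at chr5:47983138-48307733 on the plus strand, measured 1.78, 1.56, 1.63 and 1.83 TPM (edgeR, adjusted p = 1.2e-05). Slit1, which in the cortex is known from neurons and the commissural plate, measured 0.283, 1.01, 1.05 and 0.841 TPM and was not called (edgeR, adjusted p = 0.347). Slit3 measured 0.332, 0.337, 0.137 and 0.380 TPM and was called below 1 TPM (edgeR, adjusted p = 0.0029). Slit2 was above Slit1 and Slit3 in 4 of 4 libraries. Slit1 exceeded Slit3 in 3 of 4 libraries, by 0.45 ± 0.152 (log2, SE; limma, adjusted p = 0.0217), but without replicate 3 the ratio was 0.32 with adjusted p = 0.104. These values rest on few reads for Slit1 (15 to 67 counts per library) and Slit3 (8 to 23), against 383 to 446 for Slit2. The exons of Slit2 sum to 2.55 times its longest transcript, and by that transcript its mean was 3.28 TPM.

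The Robo receptors of the Slits were far more abundant, with a member nearly missing. Robo2, at chr16:73891839-74411825 on the minus strand, measured 47.8, 40.4, 49.4 and 52.1 TPM. Robo1, its neighbour at chr16:72308306-73046095 on the plus strand, measured 20.6, 17.2, 18.9 and 21 TPM. Both receptors had their lowest value in replicate 2 and their highest in replicate 4, and Robo1 was the lower by a log2 ratio of -1.24 ± 0.104 (SE; limma, adjusted p = 1.5e-06) in 4 of 4 libraries. Robo3, known for letting commissural axons cross the midline, had 2, 4, 0 and 1 counts and was not tested. Its pooled level was 0.0269 TPM with an exact 95% Poisson interval of 0.0108 to 0.0553 TPM, which covers counting error only. The 0 counts of replicate 3 allow up to 0.0456 TPM at 3 counts, and up to 0.0561 TPM by the exact 95% interval used for the pooled level.

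Summed, the Robos reached 66.9 ± 6.50 TPM, of which Robo2 made up 70.9% ± 1.13 (SD, n = 4), and the Slits 2.79 ± 0.281 TPM. The receptor sum was 28.6, 19.9, 24.2 and 24.0 times the ligand sum in replicates 1 to 4. Slits are secreted, so their RNA in these libraries does not give the amount of ligand that reaches the cells.

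The netrins were scarce too. Ntn1, the attractant of commissural axons, measured 1.3, 0.439, 0.813 and 0.890 TPM, with its lowest value in replicate 2. Ntn4, a netrin of basement membranes, measured 0.538, 0.617, 0.640 and 0.941 TPM. Neither was called by edgeR (adjusted p = 0.456 for Ntn1 and 0.111 for Ntn4), and their ratio was not called by limma (log2 0.13 ± 0.140 SE, adjusted p = 0.414). Without replicate 2 the fitted level of Ntn1 was 0.00057 on the log2 scale relative to 1 TPM, and without replicate 1 its log2 ratio to Ntn4 was -0.02. Ntn4 was called below 1 TPM with the longest transcript as length (edgeR, adjusted p = 0.0195).

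All 6 netrin receptors lay above 1 TPM, beside 75.7% of protein-coding genes tested. With the gene span as length 3 of the 6 did, beside 60.1% of all genes tested. Unc5d, a repulsive receptor known in the cortex from multipolar cells of the subventricular zone, was highest; it lies at chr8:28646717-29219636 on the minus strand. It measured 40.7, 36.1, 47.1 and 49.6 TPM. Neo1 (neogenin), which binds netrins and repulsive guidance molecules and lies at chr9:58874687-59036441 on the minus strand, measured 28.2, 27.5, 27.8 and 35.1 TPM. Unc5d exceeded Neo1 in 4 of 4 libraries, with a log2 ratio of Neo1 to Unc5d of -0.53 ± 0.137 (SE; limma, adjusted p = 0.00186). Dcc, the attractive netrin receptor, measured 7.98, 8.46, 11.1 and 10.8 TPM. It was below Neo1 by a log2 ratio of -1.54 ± 0.116 (SE; limma, adjusted p = 2.9e-06) and below Unc5d by -2.07 ± 0.135.

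Unc5a and Unc5b spread most between libraries among the netrin receptors. Unc5a, a repulsive netrin receptor, measured 11.4, 8.40, 9.96 and 5.42 TPM, lowest in replicate 4. Unc5b, also known from endothelium, averaged 4.73 TPM and Unc5c 2.30 TPM. Unc5a exceeded Unc5b in 4 of 4 libraries by 0.76 ± 0.212 on the log2 scale (SE; limma, adjusted p = 0.00044). Unc5c was below Unc5d in 4 of 4 libraries, by a log2 ratio of -3.75 ± 0.133 (SE; limma, adjusted p = 2.8e-13). The added 1 TPM is large beside Unc5c, and without it the log2 ratio was -4.25 ± 0.087 (SD, n = 4). The netrin receptors summed to 98.4 ± 9.43 TPM and the netrins to 1.54 ± 0.372 TPM, a ratio of 51.4, 82.4, 72.3 and 58.6 in replicates 1 to 4. The netrin sum holds Ntn1 and Ntn4 only, and other ligands of these receptors, such as Flrt3, are not in it. Netrins are secreted, so their RNA in these libraries does not give the amount of ligand that reaches the cells.

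Of 31 pairs of members compared within libraries, 28 were called by limma, beside 90.8% of the ratios of any gene tested to the second gene of a pair. In 27 of the 28 the sign was the same in all 4 libraries, Slit1 over Slit3 being the exception. The pairs not called were Ephb1 with Ephb2, Efna3 with Efna4 and Ntn1 with Ntn4. The exact two-sided sign-flip permutation test called none, since its smallest p with 4 libraries is 0.13 and cannot pass 0.05. The order of all 36 members by mean TPM was made from the same values, and no like share over all genes was computed. It is a description only. In it the ranges of 6 of the 35 neighbouring pairs did not overlap. These steps separated Epha4 from Epha3, Epha3 from Efnb2, Ephb1 from Dcc, Unc5b from Ephb4, Slit2 from Epha10 and Slit3 from Robo3; within the stretches between them the ranges of neighbours overlapped.

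**Figure D3:**
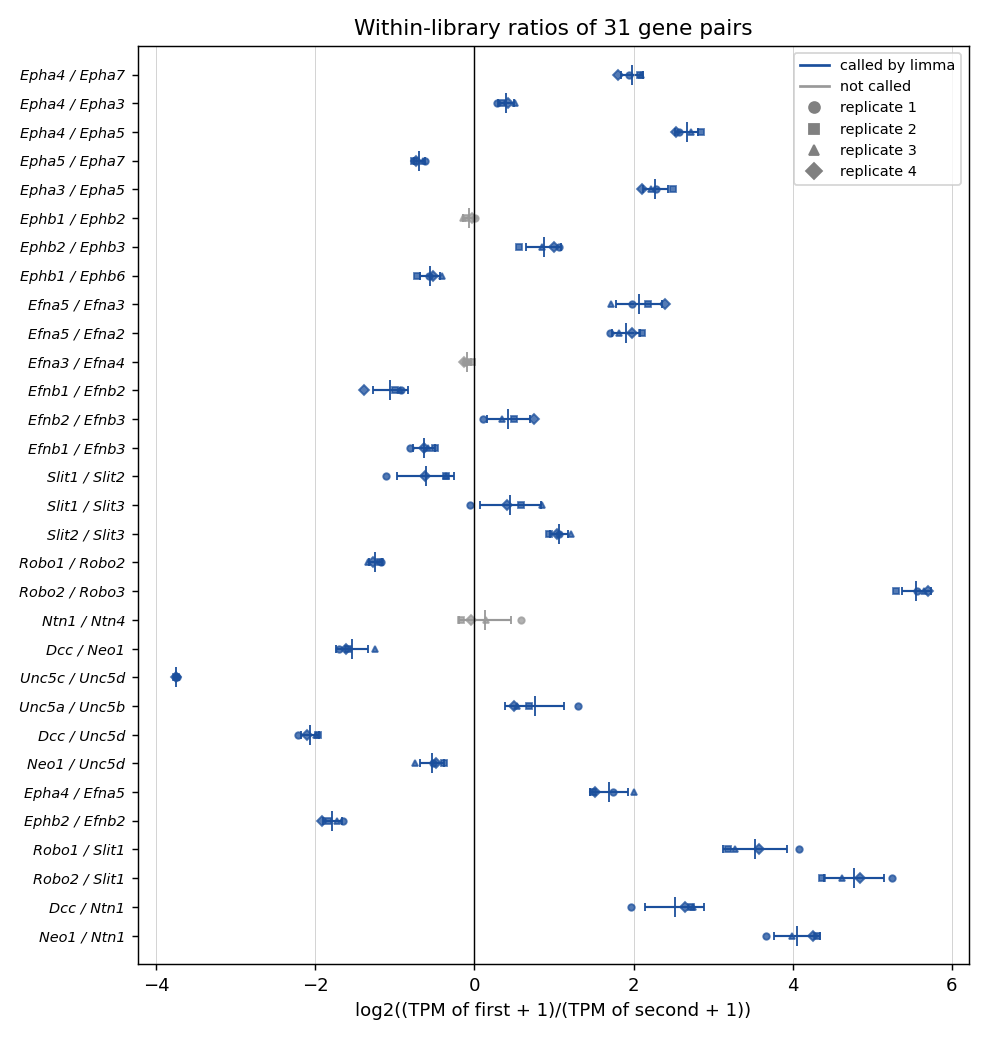
Log2 ratio of (TPM + 1) of the first to the second gene of 31 pairs; symbols are the 4 replicates, the vertical tick and bar the mean and SD, blue pairs are called by limma and grey ones are not. Robo2 over Robo3 is the largest ratio at 5.56, Unc5c over Unc5d is the smallest at -3.75, and the 3 grey pairs sit near 0.

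The members' highest and lowest values were unevenly shared among the libraries, and the source of their spread was not tested. The median coefficient of variation of the members was 13.5%, against 19.8% over all genes tested and 14.6% over protein-coding genes. Replicate 2 held the lowest value of 17 of the 35 members tested (48.6%, against 29.5% of all genes tested). Replicate 4 held the highest value of 17 members, among them Epha7, Efna5, Efnb2, Robo2, Unc5d and Neo1 (48.6%, against 31.7% of all genes tested). Erythroid markers summed to 4202 TPM in replicate 2 and to 2377 to 2683 TPM in the others, and microglia markers to 18.2 TPM in replicate 4 and to 32.8 to 42.3 TPM in the others. The part of either in the members' values was not tested.

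Many guidance genes are long, and this matters for how their level is read. Of the 36 members 19 span over 100 kb (52.8%, against 11.6% of all genes tested), and the median member spans 14.3 times its exons, against 4.23 times for all genes tested. The length behind the TPM values of the authors' deposited table was the whole gene span, introns included. The count divided by the TPM of that table followed the span within 0.01 on the log2 scale for 95.3% of 9664 genes and for 21 of 22 members with enough counts, Robo1 being the exception. The authors' deposited table as used here holds 34 of the members, without Epha10 and Efna3, and 13 of these (38.2%) averaged below 1 TPM in it, beside 34.9% of all 15648 genes of that table.

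The members' order changed with that scale. In the authors' deposited table Efnb3, the member with the smallest span relative to its exons, was first at a mean of 73.4 TPM and Epha4 was the fourth at 19.7 TPM. Dcc, whose gene spans 1097436 bases for 13171 bases of exon, had a mean of 0.406 TPM in the authors' deposited table against 9.59 TPM by exon length. Efna5 had 1.60 TPM in the authors' deposited table against 31.3 TPM.

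With the gene span as length in the edgeR fit, 18 members lay above 1 TPM (60.1% of all genes tested) and 13 below it (24.5% of all genes tested). Of the 26 members above 1 TPM by exon length, the gene span put 4 below: Ephb1, Slit2, Dcc and Unc5c. This was 15.4% of those 26, beside 9.65% of all genes above 1 TPM by exon length. Another 4 (Ephb4, Efna5, Robo1 and Unc5b) were not called by gene span. The log2 ratio of Efnb2 to Efnb3 was -1.26 by gene span, that of Ephb2 to Ephb3 -1.17, that of Neo1 to Unc5d 0.85, and those of Efna5 to Efna3 and Efna2 -1.34 and -1.16, each opposite in sign to the value by exon length. The Robo and netrin receptors were the more abundant side of their systems in summed level on this scale too, with log2 ratios of 3.56 and 6.14 to their ligands.

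**Figure D4:**
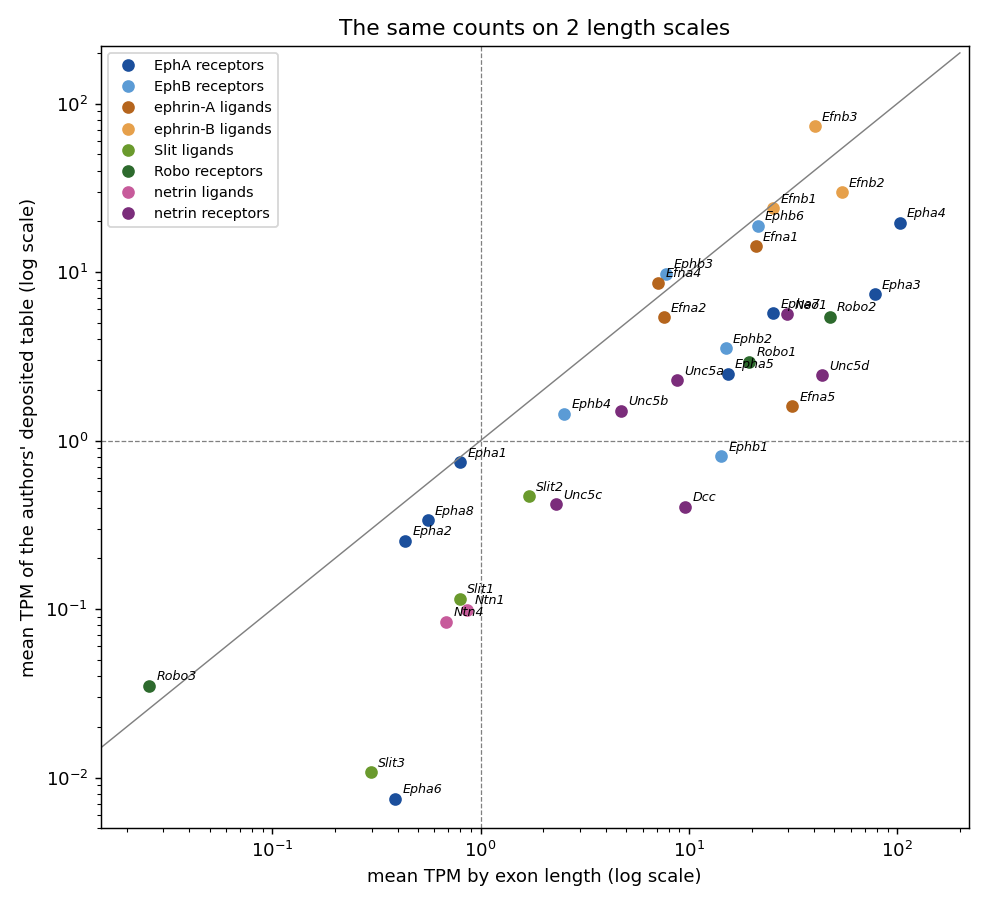
Mean TPM of 34 members by exon length (horizontal, log scale) and in the authors' deposited table (vertical, log scale), coloured by role; the grey diagonal marks equal values and dashed lines mark 1 TPM. Most members lie under the diagonal, Dcc at 9.59 against 0.406 TPM, and Efnb3 lies above it at 40.1 against 73.4 TPM.

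Genes that work with these receptors were mostly above 1 TPM, as were 75.7% of protein-coding genes tested. Of 16 other ligands and coreceptors tested, 13 lay above and 1 below it by edgeR. Highest were Flrt3 at 361.7 ± 41.2 TPM and Flrt1 at 124.7 ± 10.6 TPM, membrane proteins of which Flrt3 binds Unc5 receptors, and Nell2, a ligand of Robo3, at 125.6 ± 3.82 TPM (SD, n = 4). Robo4, the Robo of endothelium, was called below 1 TPM at a mean of 0.0793 TPM, with 13 of its 14 counts in replicate 4, and Ntn5 had no count.

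Effectors inside the cell were present for each system. Of 20 Eph and ephrin effectors 19 lay above 1 TPM and Ngef was not called; highest were the adaptor Grb2 (100.9 TPM), the ephrin-cleaving protease Adam10 (53.4 TPM) and the kinase Fyn (52.3 TPM). All 15 Robo effectors lay above 1 TPM, led by the ubiquitin ligase Nedd4 (396.3 TPM), the kinase Pak1 (175.2 TPM) and the GTPase-activating protein Srgap3 (35.7 TPM). Of 14 netrin effectors 13 lay above 1 TPM, among them the kinase Mapk3 (69.9 TPM) and the ubiquitin ligase Trim67 (41.6 TPM). These shares are read beside the 75.7% of protein-coding genes above 1 TPM.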

How the data were processed

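Guidance genes were measured by RNA-seq in 4 libraries of a single group. Per the labels' protocols, cDNA was made with a poly-dT primer and template switching, amplified and sheared. Per the submitters' processing notes, bcl2fastq 2.19.1, STAR 2.5.2b and GRCm38 were used. The read counter, its use of strand and the annotation are not named in what was used here. Values in the deposited count table are whole, unnormalised numbers of reads per Ensembl gene. The authors' deposited TPM table holds 15648 genes, and the length behind it was read from its values.

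TPM was recomputed from the counts with merged exon lengths of GENCODE M21, which matched 45143 of 45706 identifiers; the other 563 held at most 0.125% of counts. Genes with 10 or more counts over the 4 libraries entered edgeR 4.0.16 (in R 4.3.3). Its quasi-likelihood F test set each level against 1 TPM (two-sided, Benjamini-Hochberg threshold 0.05) by comparing the fitted deviance with that at the count expected at 1 TPM. Within-library ratios of pairs, log2 of (TPM + 1) over (TPM + 1), were tested with limma 3.58.1 fitted over all genes. Their p-values were adjusted by Benjamini-Hochberg over all genes set against the same second gene, and not over the 31 pairs. DESeq2 1.42.0, other lengths, scalings, filters, levels and left-out replicates were alternatives. Both fits were tested on simulated data. Sums, ratios of sums and coefficients of variation got no test. Values in every sample are given for the 3 most abundant members of each group and any other above 1 TPM with a mean of at least 5 TPM, and of pathway lists the 3 highest genes and those below 1 TPM are named; Epha8, Ephb4, Ngef and Ntn5 were added after their values were seen. Some genes this rule takes are not reported here. The members, gene lists and pairs were chosen with earlier results of these data known. Start-region sequences are from RefSeq (GRCm38.p6).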

Additional observations from a re-analysis of the deposited data

Results flagged for a closer look

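Of 48 values checked for a library standing apart from the other 3, 4 did; chance flags about 1 in 20 groups. Epha6 had 0.1008 TPM in replicate 2, where it had 6 counts, against a median of 0.484 TPM. Ephb2 was lowest in replicate 2 at 13.2 TPM (median 15.5 TPM). Efna4 was highest in replicate 3 at 8.07 TPM (median 6.83 TPM). Neo1 was highest in replicate 4 at 35.1 TPM (median 28.0 TPM).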

How the results depend on the processing

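The count of members above 1 TPM stayed within 1.5 times of 26 under all alternatives run, and was 26 without each replicate. The count below it was 3, and 2 to 3 without a replicate. It was 5 with the longest transcript as length, 13 with the gene span, 0 against 1 CPM, which has no length in it, 5 without a filter, 0 against 0.5 TPM, 10 against 2 TPM and 12 in the authors' deposited TPM by limma. Of all genes, 12.1% lay below 1 TPM, 14.5% with the longest transcript, 24.5% with the gene span, 23.5% with CPM, 23.6% without a filter, 3.49% below 0.5 TPM, 25.4% below 2 TPM (28.6% of members) and 31.3% in the deposited TPM (35.3% of members). TMM scaling, DESeq2 size factors and DESeq2's Wald test changed no member's call.

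Fitted levels (log2 relative to the level tested) changed sign for the following members. By gene span they were -0.87 for Epha10, -0.86 for Ephb1, -0.026 for Ephb4, -1.65 for Slit2, -1.86 for Dcc and -1.82 for Unc5c. In the deposited TPM they were -0.15 for Ephb1, -0.45 for Slit2, -0.51 for Dcc and -0.50 for Unc5c. With CPM they were 0.0076 for Epha1, 0.59 for Slit1 and 0.78 for Ntn1. Against 0.5 TPM they were 0.68 for Epha1, 0.15 for Epha8, 0.67 for Slit1, 0.78 for Ntn1 and 0.45 for Ntn4, and against 2 TPM -0.77 for Epha10 and -0.24 for Slit2; the shifted level makes these. Without each replicate in turn Ntn1 ranged from -0.49 to 0.00057.

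The log2 ratio of EphA to ephrin-A sums was 2.10 with the longest transcript, 0.048 by gene span, 3.29 with CPM, 1.53 without the highest member of each sum and -2.0 as a difference of medians. That of EphB to ephrin-B was -1.88 by gene span, -0.44 with CPM, -0.72 without the highest member of each sum and -1.43 by medians. That of Robo to Slit was 3.56 by gene span, 4.21 without the highest members and 3.51 by medians. That of netrin receptors to netrins was 6.85 with CPM, 6.36 without the highest members and 2.51 by medians. Without each replicate in turn these ratios ranged from 1.57 to 1.64, -0.99 to -0.94, 4.50 to 4.67 and 5.91 to 6.14.

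The sign-flip test called 0 pairs of 31, and leaving out a replicate 27 to 28. Pair ratios changed sign by gene span (Ephb2/Ephb3 -1.17, Efna5/Efna3 -1.34, Efna5/Efna2 -1.16, Efnb2/Efnb3 -1.26, Neo1/Unc5d 0.85), with CPM (Epha5/Epha7 0.034, Ephb1/Ephb6 0.29, Efna3/Efna4 0.41), with the longest transcript (Ephb1/Ephb2 0.28) and without replicate 1 (Ntn1/Ntn4, -0.021 to 0.23 over the left-out replicates). Over all genes tested, the count below 1 TPM was 2532, 549 where every library needed 10 counts, 6564 without a filter, and 1525 to 1707 without a replicate. No paired analysis was possible because the samples form a single group. Depth limits Robo3, Epha1, Epha2, Epha6, Epha8, Slit1, Slit3 and Ntn4, with at most 67 counts in any library.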
